A study of Homo sapiens with 6 samples.

Results

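The 57 genes described here encode the protein-folding machinery that cells raise under proteotoxic stress. They comprise the heat shock factors, the cytosolic HSP70 and HSP90 systems with their cochaperones, the CCT chaperonin, the mitochondrial chaperones, and the sensors, chaperones and degradation genes of the endoplasmic reticulum (ER). They were chosen by name, 57 of the 58735 genes listed in each library, and each of the 57 was matched to 1 Ensembl gene. All 57 were expressed above a mean of 1 FPKM (fragments per kilobase of exon, relative to the depth of the library), the limit for testing, which left 13718 genes in all.

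RNA sequencing was performed in SK-N-AS, a long-established human neuroblastoma line, with cells transfected either with a small interfering RNA that targets Prp19 (siPrp19) or with a control siRNA (NC). Prp19, encoded by *PRPF19*, is a core component of the spliceosome-associated complex that bears its name and a ubiquitin ligase. The knockdown was transient and no clone was selected; per the labels, RNA was taken after 72 h of transfection, and the study's methods state a shorter interval. The question was how loss of this splicing factor changed gene expression, and there were 3 libraries per group.

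The records of 2 libraries contradict each other. Each deposited table names its library in the header of its value column, and libraries are called here by that name: NCa, NCb, NCc, siPrp19a, siPrp19b and siPrp19c. The library NCb is labelled siPrp19 (replicate 1), and the library siPrp19b is labelled NC (replicate 3). Which record is right was not decided here. The genes are therefore described in the 6 libraries grouped by column name, with the same values in the 4 libraries whose label and column name give the same group (NCa and NCc against siPrp19a and siPrp19c), and in the 6 libraries grouped by label. The study's methods describe the replicates as biological, but do not say whether these libraries came from separate cultures, so p-values measure only the spread between them, which may be technical. A gene is called changed at a Benjamini-Hochberg adjusted p-value under 0.05 over all 13718 genes in a limma fit on log2(FPKM + 1).

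As background, misfolded proteins in the cytosol release heat shock factor 1 (HSF1) from chaperone complexes, after which it binds heat shock elements and raises HSP70, HSP90, their cochaperones and small heat shock proteins. In the ER, the sensors IRE1 (encoded by *ERN1*), PERK (*EIF2AK3*) and ATF6 are restrained by the HSP70 protein BiP (*HSPA5*). When unfolded proteins accumulate, ATF6 and the spliced form of XBP1 act on ER stress response elements, known as ERSE and ERSE-II, in the promoters of ER chaperone and degradation genes, while PERK phosphorylates eIF2α and favours translation of ATF4. FPKM per gene does not show whether *XBP1* mRNA was in its spliced form.

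The promoters of the genes carry these elements to differing degrees. The 250 bases before the RefSeq start site were read for 54 of the 57 genes; *HSF1*, *CCT6A* and *PDIA3* had no entry. Both strands were searched for a heat shock element (GAANNTTCNNGAA or TTCNNGAANNTTC), for ERSE (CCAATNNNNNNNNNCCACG) and for ERSE-II (ATTGGNCCACG), where N is any base. A full match to the heat shock element was found in 2 of the 54 windows, those of *HSPA8* and *DNAJB6*, and in 0.333% of 15316 windows of protein-coding genes. ERSE was found in 6 of the 54, namely *HSPA5*, *HSP90B1*, *CALR*, *CANX*, *CRELD2* and *XBP1*, and in 0.124% of all. ERSE-II was found in 3 of the 54, namely *HERPUD1*, *HYOU1* and *SDF2L1*, and in 0.0718% of all. A match is a description of the letters and not a measured binding site, and variants of the elements with a mismatch were not counted.

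The windows of the 5 genes below are shown because they carry the matches and include *HERPUD1*, the ER gene that fell. They are RefSeq sequence of GRCh38.p14, read 5′ to 3′ on the strand of the gene, with the matched element in capitals. The element lies at bases -117 to -107 before the start of *HERPUD1*, at -66 to -48 before *HSPA5*, and at -194 to -176 and -89 to -71 before *HSP90B1*. In *HYOU1* there are matches at -185 to -175 and -79 to -69, and in *HSPA8* at -230 to -218 and -55 to -43. In these 5 windows the matches do not overlap one another.
HERPUD1 (chr16:56931892-56932141, plus strand; ERSE-II): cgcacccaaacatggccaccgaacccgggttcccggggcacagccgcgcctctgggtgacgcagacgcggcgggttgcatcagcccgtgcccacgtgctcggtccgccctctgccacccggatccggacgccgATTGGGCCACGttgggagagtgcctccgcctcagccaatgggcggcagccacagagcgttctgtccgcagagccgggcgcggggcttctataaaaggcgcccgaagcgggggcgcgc
HYOU1 (chr11:119057206-119057455, minus strand; ERSE-II): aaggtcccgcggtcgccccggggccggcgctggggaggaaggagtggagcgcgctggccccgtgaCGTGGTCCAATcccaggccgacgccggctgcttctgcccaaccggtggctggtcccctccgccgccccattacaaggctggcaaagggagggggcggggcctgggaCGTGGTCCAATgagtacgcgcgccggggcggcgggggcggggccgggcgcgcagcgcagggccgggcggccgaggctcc
HSPA5 (chr9:125241344-125241593, minus strand; ERSE): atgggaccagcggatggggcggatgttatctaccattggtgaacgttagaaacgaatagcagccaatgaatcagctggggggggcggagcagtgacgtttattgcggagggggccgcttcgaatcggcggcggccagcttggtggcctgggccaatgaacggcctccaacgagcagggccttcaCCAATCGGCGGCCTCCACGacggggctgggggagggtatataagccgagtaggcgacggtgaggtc
HSP90B1 (chr12:103930160-103930409, plus strand; ERSE): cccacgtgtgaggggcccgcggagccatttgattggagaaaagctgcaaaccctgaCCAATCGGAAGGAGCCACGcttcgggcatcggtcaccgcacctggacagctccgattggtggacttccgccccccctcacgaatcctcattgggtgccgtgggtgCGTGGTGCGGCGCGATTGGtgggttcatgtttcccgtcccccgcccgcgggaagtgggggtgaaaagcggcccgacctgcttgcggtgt
HSPA8 (chr11:123062137-123062386, minus strand; heat shock element): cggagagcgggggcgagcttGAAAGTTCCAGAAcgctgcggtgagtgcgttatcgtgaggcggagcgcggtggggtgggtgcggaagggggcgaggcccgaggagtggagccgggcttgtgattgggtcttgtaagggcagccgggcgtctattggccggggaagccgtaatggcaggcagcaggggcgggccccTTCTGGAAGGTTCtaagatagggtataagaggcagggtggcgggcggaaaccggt

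The target of the siRNA was examined first. *PRPF19* was at 83 FPKM in NCa, 83.1 in NCb, 93 in NCc, 19.6 in siPrp19a, 19.1 in siPrp19b and 18.5 in siPrp19c. The libraries NCb and siPrp19b thus lay with the group of their column name and against their label. *PRPF19* fell by 77.9% by column name, with a log2 fold change of -2.12 ± 0.074 (SE) and a limma adjusted p of 0.000215; by label it was -0.74 ± 0.73 (SE; adjusted p = 1.00). Recovered reads numbered 14887132 to 19977811 per library. The mitochondrial share of these reads was 8.29% in siPrp19a and 5.15% to 5.49% in the other libraries. NCa and NCb resembled each other more closely than other pairs (chi-square of the reads per degree of freedom 1.72), as did siPrp19b and siPrp19c (2.59), against 18.0 to 46.7 for the other pairs. The neuroblastoma markers *HAND2* (117 to 170 FPKM) and *GATA3* (22.8 to 30.7 FPKM) were expressed. *TH* was at most at 0.662 FPKM. By column name all 7 adrenergic neuroblastoma markers tested were below 0, with a median log2 fold change of -0.29 (-0.20 after quantile normalization), 5 had a p under 0.05 before adjustment, and limma called 2, both lower in siPrp19. All 6 mesenchymal neuroblastoma markers tested were likewise below 0 by column name, with a median log2 fold change of -0.24. After quantile normalization it was -0.17, with 5 of the 6 below 0. Of the 6, 3 had a p under 0.05 before adjustment, and limma called 1, *WWTR1*, which was lower in siPrp19. Over all genes tested, p was under 0.05 for 23.6%, and 7.94% were called. Of the 5 leukocyte markers, *PTPRC* was at 24.9 to 30.7 FPKM in NC and at 16.9 to 20.4 FPKM in siPrp19 and was called lower, and the other 4 were at most at 0.0929 FPKM; the epithelial and endothelial markers reached at most 0.982 FPKM. The part of these marker differences in the values below was not tested.

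Few of the stress genes changed. By column name, 2 of the 57 passed the test, *HSP90AA1* and *HERPUD1*, and both fell. In bulk RNA, fewer cells that express a gene and less RNA per cell cannot be told apart. The 2 genes are 3.51% of the genes, against 7.94% of all genes tested, and against 5.37% of all genes called lower. Before adjustment, p was under 0.05 for 11 of the 57 (19.3%), against 23.6% of all genes. The groups did not overlap for 19 of the 57 (33.3%), 15 lower and 4 higher in siPrp19, against 31.3% of all genes. The median log2 fold change was -0.067, against -0.020 over all genes. With voom on the recovered reads 3 of the 57 were called (*HERPUD1*, *HSP90AA1* and *PDIA4*), against 10.2% of all genes. After quantile normalization 3 were called (*HERPUD1*, lower, and *SYVN1* and *PDIA6*, higher), against 7.92% of all genes. Under quantile normalization the calls over all genes divided into 501 higher and 586 lower, in place of 353 and 736.

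In the 4 libraries whose records give the same group, 0 of the 57 were called by limma and 0 by voom, against 0.0146% and 2.3% of all genes. There, p before adjustment was under 0.05 for 2 of the 57 (3.51%), *HERPUD1* and *ERN1*, against 12.3% of all genes. Grouped by label, 0 of the 57 were called by limma and 0 by voom, against 0% of all genes, and p before adjustment was under 0.05 for 0 of the 57, against 1.39% of all genes. When the close pairs NCa with NCb and siPrp19b with siPrp19c were averaged, 0 of the 57 were called, against 0.0146% of all genes.

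Most of the 95% confidence intervals were narrow, but they measure only the spread between libraries. They count the close pairs as separate libraries and leave out the choice of scaling. For *HSP90AB1* the log2 fold change after quantile normalization (-0.039) lay outside its interval by column name (-0.54 to -0.044). In 51 of the 57 (89.5%), the 95% confidence interval of the change by column name lay within 1.5-fold in either direction, against 76.5% of all genes tested. The intervals of *HSP90AA1*, *HERPUD1*, *ERN1*, *HSPE1*, *CALR* and *MANF* reached beyond it. Over the 4 libraries, 38 of the 57 intervals (66.7%) lay within 1.5-fold, against 56.0% of all genes tested. No gene of the 57 had fewer than 224 reads in any library.

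**Figure D1:**
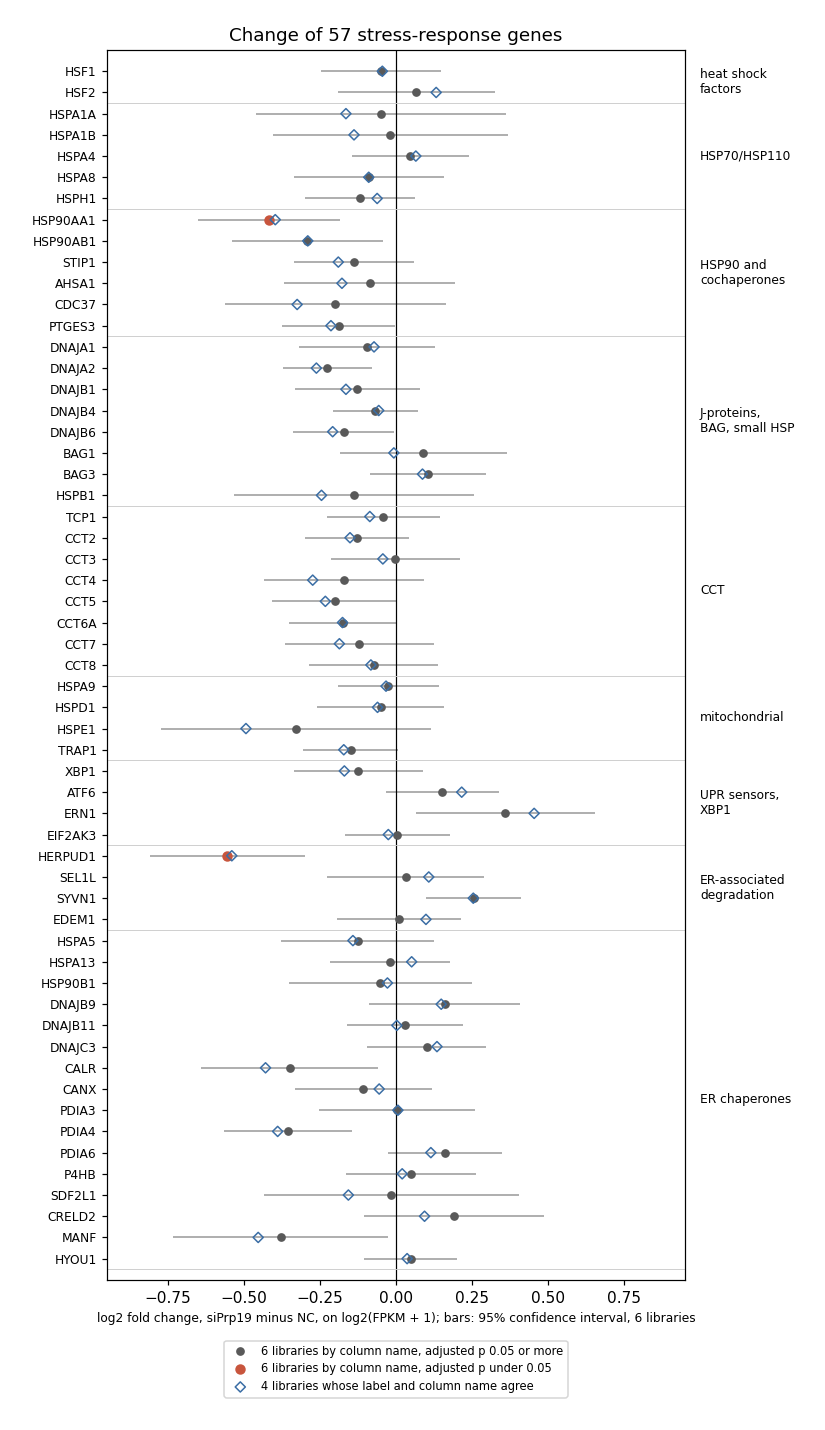
Log2 fold change (siPrp19 minus NC, on log2(FPKM + 1)) of the 57 genes by role. Circles and 95% confidence interval bars are from the 6 libraries by column name, with *HSP90AA1* (-0.42) and *HERPUD1* (-0.56) in red as the 2 genes past an adjusted p-value of 0.05, and diamonds are from the 4 libraries whose label and column name give the same group.

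A single library set much of the spread between libraries. NCc had the highest value for 40 of the 57 genes (70.2%), against 28.6% of all genes tested. The genes were abundant, 32 of the 57 lying in the top 10% of genes by mean FPKM, and NCc was highest for 63.6% of the genes in that range. Summed over the 57, the level was 6492 FPKM in NCc and 5261 to 5668 FPKM in the other libraries. The FPKM of all genes also differed, summing to 316809 in NCc and to between 279221 and 302517 in the others. Of that sum the 57 made up 1.98% in NCa, 1.98% in NCb and 2.05% in NCc. The share was 1.78% in siPrp19a, 1.88% in siPrp19b and 1.91% in siPrp19c, so by column name the groups did not overlap. The median deviation of the 57 from their mean over the libraries was 0.17 on the log2 scale in NCc and between -0.047 and -0.015 in the others. The median log2 fold change by column name was -0.018 without NCc and 0.054 after quantile normalization, under which 21 of the 57 genes were lower in siPrp19 in place of 39. Over the top 10% of all genes by level, the median moved likewise, from -0.12 to 0.012. Small differences of one sign across a group of these abundant genes therefore depend on the scaling, and for each group the sign under quantile normalization is given. siPrp19a, the library with the highest mitochondrial share, was lowest for 19 of the 57 (33.3%), against 24.7% of all genes. The part of the mitochondrial share in these values was not tested.

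**Figure D2:**
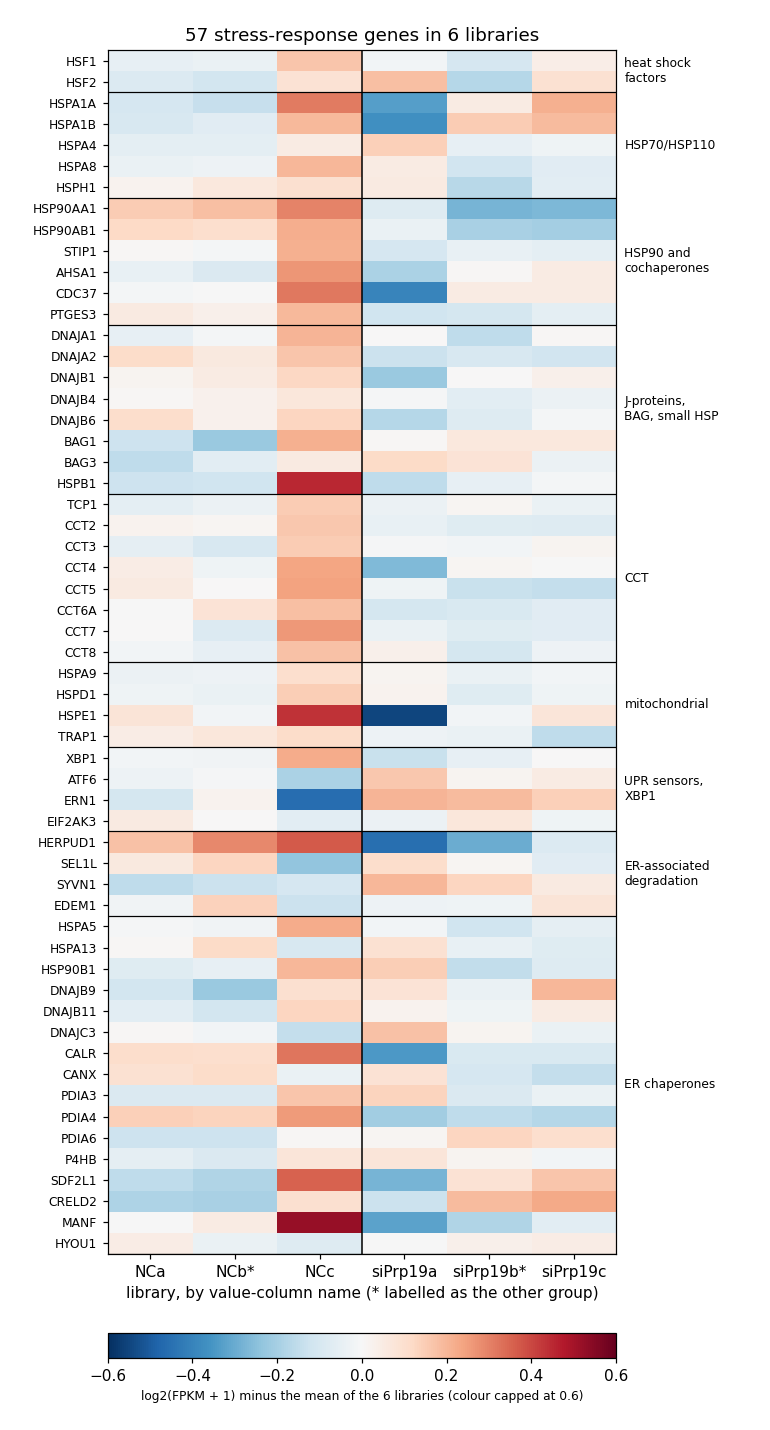
Each row is a gene and each column a library by its column name, where an asterisk marks a library labelled as the other group. Colour gives log2(FPKM + 1) minus the mean of the 6 libraries, so that the red column of NCc (highest for 40 of the 57 genes) and the blue cells of siPrp19a (lowest for 19) stand out.

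The heat shock factors were expressed at moderate levels and neither passed the test. *HSF1*, the main activator of the heat shock response, was at 19.4 FPKM in NCa, 19.5 in NCb, 22.6 in NCc, 19.9 in siPrp19a, 18.7 in siPrp19b and 20.7 in siPrp19c. Its groups overlapped, with a log2 fold change of -0.050 (95% confidence interval -0.25 to 0.15) that became 0.030 after quantile normalization. *HSF2*, which forms mixed trimers with HSF1, was at 5.75 FPKM in NCa, 5.62 in NCb, 6.58 in NCc, 7.1 in siPrp19a, 5.34 in siPrp19b and 6.59 in siPrp19c. The lowest and the highest value of *HSF2* were both in siPrp19 libraries, and the log2 fold change was 0.067 (-0.19 to 0.33). Both values are at the level of mRNA, whereas HSF1 is regulated mainly by its trimer formation and modification.

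In the cytosolic HSP70 and HSP110 group, 0 of 5 genes were called by limma or voom and in 0 of 5 was the p before adjustment under 0.05. The median log2 fold change was -0.048, with 4 of the 5 below 0, and 0.061 after quantile normalization, with 1 of the 5 below 0. *HSPH1*, the HSP110 nucleotide exchange factor, was at 25.2 FPKM in NCa, 26.1 in NCb, 26.7 in NCc, 25.9 in siPrp19a, 22.1 in siPrp19b and 23.8 in siPrp19c. Its log2 fold change of -0.12 had an interval of -0.30 to 0.064, and the groups overlapped at siPrp19a. *HSPA8*, the constitutive HSC70 whose promoter window holds 2 heat shock elements, was at 238 FPKM in NCa, 239.8 in NCb, 281 in NCc, 253 in siPrp19a, 226 in siPrp19b and 233 in siPrp19c. NCc was highest and the other values lay within 226 to 253 FPKM, and the log2 fold change of -0.089 (-0.34 to 0.16) became 0.041 after quantile normalization. *HSPA4*, another HSP110 family member, was at 53.5 FPKM in NCa, 53.5 in NCb, 57.8 in NCc, 61.8 in siPrp19a, 54 in siPrp19b and 54.9 in siPrp19c. It was highest in siPrp19a and overlapped elsewhere, with a log2 fold change of 0.048 (-0.14 to 0.24). The stress-inducible HSP70 genes *HSPA1A* (30.4 to 48 FPKM) and *HSPA1B* (18.5 to 27.8 FPKM), which respond most steeply to heat shock, were lowest in siPrp19a and highest in NCc. Their log2 fold changes were -0.048 (-0.46 to 0.36) and -0.018 (-0.40 to 0.37). In GENCODE 29, 71.3% of the 50-base words of *HSPA1A* transcripts and 73.5% of those of *HSPA1B* also occur in other genes, chiefly in each other, so the division of reads between the pair is uncertain.

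The HSP90 group held one of the genes that fell. *HSP90AA1* (ENSG00000080824, minus strand of chromosome 14, 102080738 to 102139699, GRCh38), the inducible cytosolic HSP90, was at 285 FPKM in NCa, 291 in NCb, 316 in NCc, 244 in siPrp19a, 211 in siPrp19b and 213 in siPrp19c. Every siPrp19 library lay below every NC library, by 25.2% on average, with 298 ± 16.3 FPKM in NC and 223 ± 18.2 FPKM in siPrp19 (mean and SD, n = 3 each). The log2 fold change was -0.42 ± 0.099 (SE), with a limma adjusted p of 0.0492 and 0.0243 by voom. This call lay at the threshold: the adjusted p-value by limma was 0.0805 after quantile normalization (log2 fold change -0.33), 0.166 without the filter on low values and 0.452 with the close pairs averaged, and it was 0.142 without NCa, 0.148 without NCb, 0.194 without siPrp19b and 0.188 without siPrp19c. Over the 4 libraries the log2 fold change was -0.40 (adjusted p = 0.461), and by label it was -0.11 (adjusted p = 1.00). Of its 50-base words, 14% also occur in other genes, most of them in the pseudogene *HSP90AA2P*.

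The constitutive form of cytosolic HSP90 was not called. *HSP90AB1*, the most abundant of the 57 genes, was at 616 FPKM in NCa, 608 in NCb, 659 in NCc, 552 in siPrp19a, 496 in siPrp19b and 492 in siPrp19c. The groups did not overlap, but the log2 fold change of -0.29 ± 0.10 (SE) did not pass the test (limma adjusted p = 0.149) and was -0.039 after quantile normalization. *PTGES3*, the p23 cochaperone that stabilises the closed form of HSP90, was at 120.1 FPKM in NCa, 118 in NCb, 132 in NCc, 106 in siPrp19a, 107 in siPrp19b and 111 in siPrp19c. Here too the groups did not overlap, with a log2 fold change of -0.19 (limma adjusted p = 0.208) that came to -0.0096 after quantile normalization. The other cochaperones *STIP1* (the HSP70-HSP90 adaptor), *AHSA1* (the ATPase activator) and *CDC37* (the kinase adaptor) had log2 fold changes of -0.14, -0.086 and -0.20, none of which passed the test. All 6 genes of the group were below 0 by column name, with a median of -0.19, and 4 of the 6 were below 0 after quantile normalization, with a median of -0.016.

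Among the J-proteins, BAG proteins and small heat shock proteins, 0 of 8 genes were called and in 2 of 8 the p before adjustment was under 0.05. *DNAJA2*, a J-protein that stimulates the HSC70 ATPase, was at 21.7 FPKM in NCa, 20.9 in NCb, 22.6 in NCc, 18.2 in siPrp19a, 18.7 in siPrp19b and 18.4 in siPrp19c. The siPrp19 values lay close together and below all NC values, with a log2 fold change of -0.23 ± 0.062 (SE) and a limma adjusted p of 0.0755. *DNAJB6*, a suppressor of protein aggregation with 1 heat shock element in its window, was at 20.5 FPKM in NCa, 19.3 in NCb, 20.8 in NCc, 16.8 in siPrp19a, 17.9 in siPrp19b and 18.8 in siPrp19c. The groups did not overlap, and the log2 fold change of -0.17 had a limma adjusted p of 0.198. *DNAJB1*, the HSP40 that is strongly induced by heat, was at 37.9 FPKM in NCa, 38.9 in NCb, 40.9 in NCc, 32 in siPrp19a, 37.5 in siPrp19b and 38.3 in siPrp19c. It was lowest in siPrp19a while the other siPrp19 libraries lay next to NCa, and its log2 fold change was -0.13 (-0.33 to 0.080). *DNAJA1* and *DNAJB4* had log2 fold changes of -0.095 and -0.067. *BAG3*, which links HSP70 to selective autophagy, and *BAG1*, which links it to the proteasome, were at 0.11 and 0.090. *HSPB1*, the small heat shock protein HSP27, was at 324 FPKM in NCc and at 213 to 234 FPKM in the other libraries, and its interval was -0.53 to 0.26. The median of the group was -0.11 as deposited and -0.017 after quantile normalization, with 6 and 5 of the 8 below 0.

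The CCT chaperonin, a ring of 8 different subunits that folds actin and tubulin, had no called subunit. The log2 fold changes of all 8 subunits were between -0.20 and -0.0020 by column name, with a median of -0.13 and adjusted p-values of 0.219 to 0.992 by limma. After quantile normalization the median was 0.044, and 3 of the 8 were below 0. *CCT6A* was at 77.8 FPKM in NCa, 82.5 in NCb, 88.3 in NCc, 72.3 in siPrp19a, 73.1 in siPrp19b and 74.3 in siPrp19c. The NC and siPrp19 values did not overlap, with a log2 fold change of -0.17 (-0.35 to 0.0031). *CCT5* was at 65.3 FPKM in NCa, 63 in NCb, 74.4 in NCc, 61.6 in siPrp19a, 57.1 in siPrp19b and 56.8 in siPrp19c. Its groups were likewise apart, with a log2 fold change of -0.20 (-0.41 to 0.0046; -0.13 without NCc), although 29.8% of its 50-base words occur in other genes. *CCT2* was at 60.8 FPKM in NCa, 60.5 in NCb, 67.2 in NCc, 58.1 in siPrp19a, 57 in siPrp19b and 56.8 in siPrp19c. The log2 fold change of *CCT2*, -0.13 (-0.30 to 0.042), became 0.035 after quantile normalization. *CCT3*, the most abundant subunit, had a log2 fold change of -0.0020 (-0.21 to 0.21), and *TCP1*, the least abundant, of -0.042 (-0.23 to 0.14). Summed over the 8 subunits, the level was 666 FPKM in NCa, 652 in NCb, 767 in NCc, 641 in siPrp19a, 640.2 in siPrp19b and 647 in siPrp19c. The NC sums were above the siPrp19 sums, with NCb above siPrp19c by less than NCc lay above NCa. These sums are of FPKM as deposited, whose total over all genes also differed between libraries. All 8 intervals lay within 1.5-fold.

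Mitochondrial chaperones were also without a call, 0 of 4, and none had a p under 0.05 before adjustment. The median log2 fold change was -0.10 as deposited, with all 4 below 0, and 0.016 after quantile normalization, with 2 of the 4 below 0. *HSPA9*, the mitochondrial HSP70 mortalin that drives protein import, was at 49 FPKM in NCa, 49.2 in NCb, 53.9 in NCc, 50.8 in siPrp19a, 48.9 in siPrp19b and 49.6 in siPrp19c. It varied little, with an interval of -0.19 to 0.14. *HSPD1* (HSP60) and *HSPE1* (HSP10) form the folding chamber of the matrix, and they are transcribed head to head, so that their 250-base windows overlap by 104 bases on chromosome 2. *HSPD1* was at 182 FPKM in NCa, 179.9 in NCb, 205 in NCc, 188 in siPrp19a, 176 in siPrp19b and 182 in siPrp19c, with a log2 fold change of -0.051 (-0.26 to 0.16). *HSPE1* was at 23.1 FPKM in NCa, 21.5 in NCb, 29.8 in NCc, 14.6 in siPrp19a, 21.5 in siPrp19b and 23 in siPrp19c. The lowest *HSPE1* value was in siPrp19a and the highest in NCc, the other libraries were within 21.5 to 23.1 FPKM, and the log2 fold change of -0.33 (-0.77 to 0.12) came with a limma adjusted p of 0.348. It was -0.20 without NCc and -0.14 without siPrp19a. The *HSPE1* level was 7.75% of that of *HSPD1* in siPrp19a and between 12% and 14.5% in the other libraries. Of the 50-base words of *HSPE1*, 22.7% occur in other genes (11% in *HSPD1*), as do 18.4% of those of *HSPD1*, so the division of reads is uncertain. *TRAP1*, the HSP90 of mitochondria, was at 20.6 FPKM in NCa, 20.9 in NCb, 21.6 in NCc, 19.5 in siPrp19a, 19.4 in siPrp19b and 17.8 in siPrp19c. Its groups did not overlap, but the log2 fold change of -0.15 had a limma adjusted p of 0.229, and 21.4% of its 50-base words occur in other genes, most of them in *DNASE1*.

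**Figure D3:**
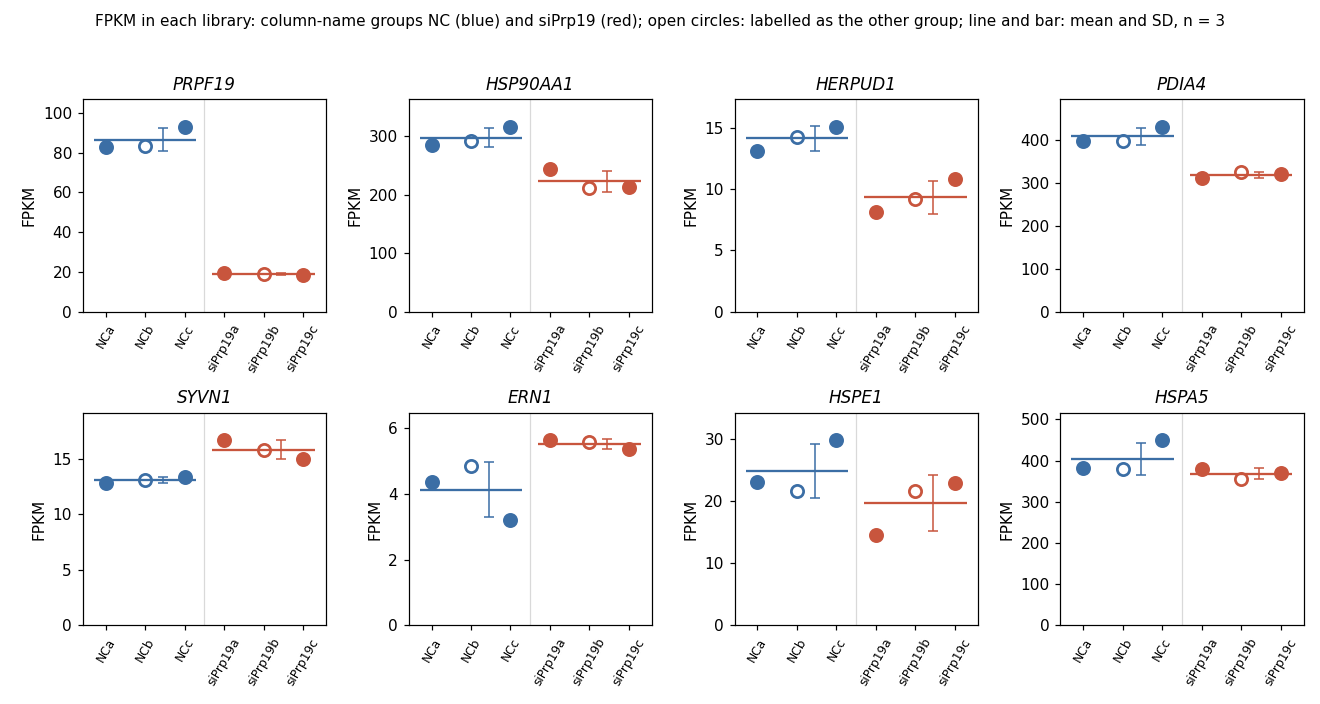
FPKM of *PRPF19* and 7 of the genes in each library (each vertical axis starts at 0), with blue for NC and red for siPrp19 by column name and open circles for the 2 libraries labelled as the other group. Lines and bars give the mean and SD of 3 libraries; *HSP90AA1*, *HERPUD1*, *PDIA4*, *SYVN1* and *ERN1* do not overlap between the groups, whereas *HSPE1* is set apart by siPrp19a and NCc, and *HSPA5* overlaps.

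Of the sensors of the unfolded protein response and XBP1, none was called, and the 2 largest differences were higher in siPrp19. The median was 0.078 on the log2 scale as deposited and 0.11 after quantile normalization. *ERN1*, which encodes the kinase and endonuclease IRE1 that splices *XBP1* mRNA, was at 4.35 FPKM in NCa, 4.83 in NCb, 3.19 in NCc, 5.62 in siPrp19a, 5.57 in siPrp19b and 5.35 in siPrp19c. Every siPrp19 value was above every NC value, the lowest being in NCc, and the log2 fold change was 0.36 ± 0.12 (SE) with a limma adjusted p of 0.136. Without NCc it was 0.22 (adjusted p = 0.108). *ATF6*, the membrane-bound factor that is cleaved in the Golgi upon stress, was at 14.8 FPKM in NCa, 15.1 in NCb, 13.2 in NCc, 17.1 in siPrp19a, 15.4 in siPrp19b and 15.8 in siPrp19c. The groups did not overlap, with NCb and siPrp19b next to each other, and the log2 fold change was 0.15 (-0.034 to 0.34). *EIF2AK3*, which encodes PERK, was at 4.11 FPKM in NCa, 3.93 in NCb, 3.71 in NCc, 3.81 in siPrp19a, 4.16 in siPrp19b and 3.84 in siPrp19c. Its groups overlapped, with a log2 fold change of 0.0049 (-0.17 to 0.18), and 13.5% of its 50-base words occur in another gene. *XBP1*, itself a target of ATF6 with an ERSE in its window, was at 42.9 FPKM in NCa, 42.8 in NCb, 50.8 in NCc, 39.5 in siPrp19a, 41.9 in siPrp19b and 43.5 in siPrp19c. NCc was highest, and the log2 fold change of -0.12 (-0.34 to 0.090) was -0.0093 after quantile normalization.

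Of the 4 genes of ER-associated degradation 1 was called, and it fell. The other 3 had log2 fold changes above 0, as deposited and after quantile normalization. *HERPUD1* (ENSG00000051108, plus strand of chromosome 16, 56932048 to 56944863, GRCh38), a membrane protein that brings together the degradation complex and is among the genes most readily induced by ER stress, was at 13.1 FPKM in NCa, 14.2 in NCb, 15.1 in NCc, 8.11 in siPrp19a, 9.16 in siPrp19b and 10.8 in siPrp19c. All siPrp19 libraries lay below all NC libraries, and the fall was 33.9% by column name, with 14.1 ± 1.0 FPKM in NC and 9.35 ± 1.35 FPKM in siPrp19 (mean and SD, n = 3 each). The log2 fold change was -0.56 ± 0.11 (SE) with a limma adjusted p of 0.0263, 0.00997 by voom and 0.0394 by limma after quantile normalization. The limma adjusted p-value was 0.0810 without the filter, 0.166 with the close pairs averaged, 0.0715 without NCa, 0.0959 without NCb, 0.0538 without NCc and 0.105 without siPrp19b, while the log2 fold change stayed between -0.65 and -0.47 when any library was left out. It was -0.54 (adjusted p = 0.284) in the 4 libraries and by label -0.16 (adjusted p = 1.00). Of its 50-base words, 0.198% occur in other genes. *SYVN1*, the ubiquitin ligase HRD1 to which HERPUD1 binds, was at 12.8 FPKM in NCa, 13.1 in NCb, 13.3 in NCc, 16.7 in siPrp19a, 15.8 in siPrp19b and 15 in siPrp19c. It was higher in every siPrp19 library, with a log2 fold change of 0.26 ± 0.066 (SE) and a limma adjusted p of 0.064, which passed after quantile normalization (0.0319). *SEL1L*, the adaptor of HRD1, was at 19.4 FPKM in NCa, 20.5 in NCb, 15.7 in NCc, 20.1 in siPrp19a, 18.8 in siPrp19b and 17.7 in siPrp19c. The NC libraries held both its highest and its lowest value, and the log2 fold change was 0.032 (-0.23 to 0.29). *EDEM1*, a lectin that hands misfolded glycoproteins to degradation, was at 9.1 FPKM in NCa, 10.3 in NCb, 8.37 in NCc, 9.04 in siPrp19a, 9.06 in siPrp19b and 9.81 in siPrp19c, with a log2 fold change of 0.011 (-0.19 to 0.21).

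In the lumen and membrane of the ER, 0 of 16 chaperones were called, in 3 of 16 the p before adjustment was under 0.05, and the median log2 fold change was -0.0059, with 8 of the 16 below 0. After quantile normalization the median was 0.10, with 3 of the 16 below 0. *PDIA4*, a protein disulfide isomerase, was at 398 FPKM in NCa, 396 in NCb, 430.2 in NCc, 311 in siPrp19a, 324 in siPrp19b and 319.9 in siPrp19c. Its siPrp19 values lay together and below all NC values, with 408 ± 19.3 FPKM in NC and 318 ± 6.57 FPKM in siPrp19 (mean and SD, n = 3 each), and the log2 fold change of -0.36 ± 0.090 (SE) had a limma adjusted p of 0.0591. It passed with voom (0.0280) and without NCc (0.0338), when 9.87% of all genes were called. *CALR*, the lectin chaperone calreticulin, was at 525 FPKM in NCa, 523 in NCb, 610.3 in NCc, 385 in siPrp19a, 458 in siPrp19b and 458 in siPrp19c. No siPrp19 library reached the lowest NC value, and the log2 fold change was -0.35 (limma adjusted p = 0.142), or -0.10 after quantile normalization. *MANF*, a secreted ER stress protein with neurotrophic activity, was at 27.6 FPKM in NCa, 28.6 in NCb, 40.1 in NCc, 21.9 in siPrp19a, 24.2 in siPrp19b and 26.4 in siPrp19c. The groups did not overlap, NCc stood above the rest, and the log2 fold change of -0.38 had a limma adjusted p of 0.183 and was -0.21 without NCc.

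The central ER chaperones showed little difference. *HSPA5*, encoding BiP and widely used as a readout of ER stress, was at 383 FPKM in NCa, 379 in NCb, 449 in NCc, 381 in siPrp19a, 354 in siPrp19b and 371 in siPrp19c. Apart from NCc the libraries lay within 354 to 383 FPKM, and the log2 fold change was -0.13 (-0.38 to 0.12), or 0.034 after quantile normalization. *HSP90B1*, the ER HSP90 GRP94, was at 371 to 471 FPKM with a log2 fold change of -0.051 (-0.35 to 0.25). The BiP cofactors *DNAJB9*, *DNAJB11*, *DNAJC3* and *HYOU1* had log2 fold changes of 0.16, 0.031, 0.10 and 0.049, and *HSPA13* and *SDF2L1* were at -0.020 and -0.015. Among the disulfide isomerases other than *PDIA4*, *PDIA3* was at 0.0036, *P4HB* at 0.049 and *PDIA6* at 0.16. *PDIA6* was at 99.3 to 109 FPKM in NC and 109 to 119 FPKM in siPrp19, and passed only after quantile normalization (log2 fold change 0.33, limma adjusted p = 0.020); 22.4% of its 50-base words occur in *ATP6V1C2*. The lectin chaperone *CANX* was at -0.11 and *CRELD2* at 0.19.

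Set beside the promoter matches listed above, 1 of the 9 genes with an ERSE or ERSE-II match was called, *HERPUD1*. This count is too small to set apart from the 7.94% of all genes. The other 8 had log2 fold changes from -0.35 (*CALR*) to 0.19 (*CRELD2*), the smallest adjusted p-value among them being 0.142 by limma. By sign, 7 of the 9 were below 0 as deposited and 3 of the 9 after quantile normalization. *HYOU1*, which shares the ERSE-II with *HERPUD1* and carries it at 2 places, was at 30.3 FPKM in NCa, 28.5 in NCb, 27.8 in NCc, 29.3 in siPrp19a, 30.0 in siPrp19b and 30.3 in siPrp19c, a log2 fold change of 0.049 (-0.10 to 0.20). The genes with a heat shock element, *HSPA8* and *DNAJB6*, were not called. *HSP90AA1*, which was called, had no full match in the window read. That window lies before a start at the upstream end of the gene, and any start further downstream was not searched.

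**Figure D4:**
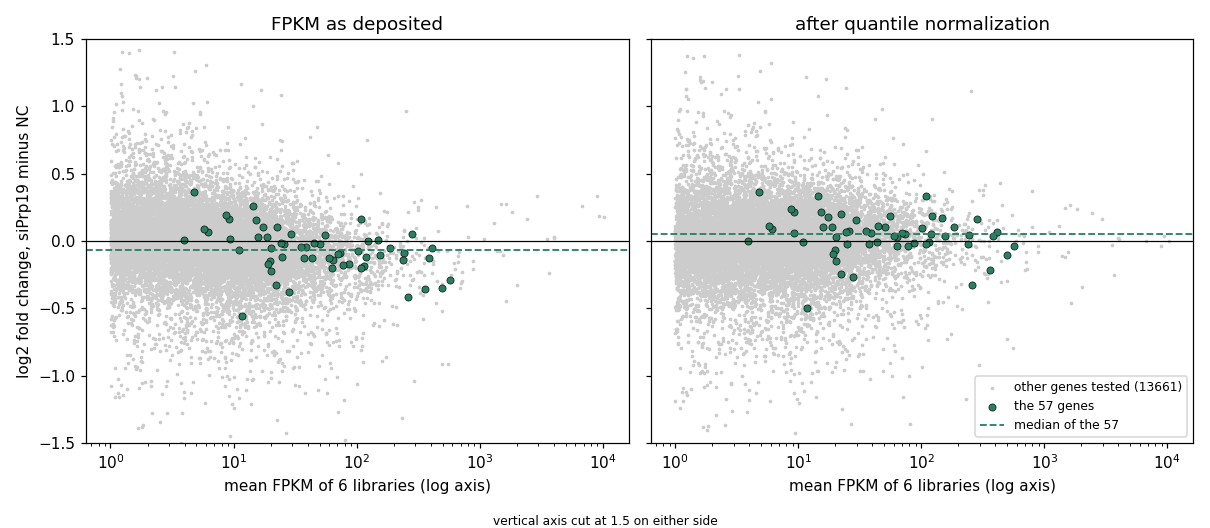
Log2 fold change by column name (vertical axis, cut at 1.5) against mean FPKM (log axis) for all 13718 genes tested, as deposited on the left and after quantile normalization on the right, with the 57 genes in green. The dashed line, the median of the 57, moves from -0.067 to 0.054, and the most abundant of the 57 move upwards.

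Neighbouring genes of the same pathways were counted in 5 further lists. Of the 24 other cytosolic chaperones and cochaperones tested, 1 was called by column name, of the 6 prefoldin subunits 0, of the 10 other mitochondrial chaperones and proteases 0, of the 9 genes of the PERK branch and integrated stress response 2, and of the 27 other ER folding and degradation genes 1. These counts stand against the 7.94% of all genes. Their median log2 fold changes were -0.068, -0.063, -0.11, -0.031 and -0.033, in that order, and -0.010, 0.046, -0.019, 0.064 and 0.053 after quantile normalization. Under quantile normalization 3 genes of the PERK branch and 3 of the ER folding and degradation genes were called, and the other counts were as above. *BAG4*, a cochaperone that binds HSP70, was at 6.49 to 7.40 FPKM in NC and at 5.18 to 5.54 FPKM in siPrp19 and fell (log2 fold change -0.34, limma adjusted p = 0.0365). The call of *BAG4* was lost without the filter (adjusted p = 0.0828), with the close pairs averaged (0.324) and without any 1 of the 6 libraries (0.0504 to 0.150). In the 4 libraries limma called none of the genes in the 5 lists. There, the limma p before adjustment was under 0.05 for 4 of the 9 genes of the PERK branch. It was so for 1 of the 27 ER folding and degradation genes, against 12.3% of all genes. In these 4 libraries voom called 1 gene of the lists, in the PERK branch, against 2.3% of all genes. By column name voom called 1, 0, 0, 3 and 2 genes of the 5 lists, in the order above, against 10.2% of all genes.

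In the PERK branch, the called genes went in opposite directions. *EIF2S1*, which encodes eIF2α, the substrate of PERK, was at 29.5 FPKM in NCa, 30.0 in NCb, 32.5 in NCc, 21.9 in siPrp19a, 21 in siPrp19b and 21.8 in siPrp19c. The groups were well apart, and the log2 fold change was -0.49 ± 0.067 (SE) with a limma adjusted p of 0.00978. *SESN2*, a stress-induced target of ATF4 and p53, was at 3.95 FPKM in NCa, 5.13 in NCb, 4.88 in NCc, 7.19 in siPrp19a, 8.02 in siPrp19b and 7.9 in siPrp19c. Its values rose in every siPrp19 library, with a log2 fold change of 0.63 ± 0.098 (SE) and a limma adjusted p of 0.0141. In the 4 libraries the log2 fold changes were -0.48 for *EIF2S1* and 0.66 for *SESN2*, with adjusted p-values of 0.226 and 0.155. Without siPrp19b or siPrp19c the adjusted p-values by column name were 0.0600 and 0.0537 for *EIF2S1* and 0.0726 and 0.0683 for *SESN2*, and with the close pairs averaged they were 0.199 and 0.146. By column name, the limma p before adjustment was under 0.05 for 4 of the 9 genes tested (44.4%), against 23.6% of all genes. Of the transcription factors of this branch, *ATF4* and *DDIT3* are given here, named after their values were seen, and limma called neither. *ATF4* was at 75.7 FPKM in NCa, 72.2 in NCb, 92.3 in NCc, 68.2 in siPrp19a, 72.6 in siPrp19b and 76 in siPrp19c, and *DDIT3*, which encodes CHOP, was at 12 FPKM in NCa, 11.6 in NCb, 16.1 in NCc, 8.23 in siPrp19a, 11 in siPrp19b and 16.3 in siPrp19c. Both overlapped between the groups, with log2 fold changes of -0.14 (-0.40 to 0.12) and -0.18 (-0.73 to 0.36).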

How the data were processed

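Total RNA of SK-N-AS cells was sequenced after NEBNext Ultra library preparation. The authors deposited 1 table per library with an FPKM value for each of 58735 Ensembl genes. The submitters' processing notes name HISAT2 2.0.5, featureCounts 1.5.0-p3 and hg38; the annotation and the strandedness of counting are not given in the sources used here, so reads of genes that overlap on opposite strands may be mixed. Current gene names were found for 58207 identifiers, and the 528 without one took their GENCODE 29 name. Each FPKM value multiplied by the GENCODE 29 exon length was a whole multiple of 1 read for 100% of the values above 0 (tolerance 0.02 reads), which gave the reads per gene; these total 14887132 to 19977811 per library.

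Genes averaging 1 FPKM or more across the 6 libraries were tested with limma 3.58.1 (R 4.3.3) on log2(FPKM + 1), which understates changes of weakly expressed genes, with a trend of variance on level, and p-values were adjusted by Benjamini-Hochberg across the 13718 genes. Column groups came from the sample whose description equals the column header. All 57 genes passed the filter, so no permutation test of a gene below it was needed. The fit was tested on simulated data with 200 changed genes. The 57 genes, their 9 role groups, the 5 further lists and the markers were chosen with earlier results of these data known, and no list was tested as a set. In each role group the 3 genes with the smallest p-value by column name (all genes of groups of up to 4), every called gene, and up to 2 called genes per further list were named with their values; the others are given in brief. Some called genes of the further lists and markers are not reported here by name. Alternatives comprised a smaller pseudocount (0.1), no filter, quantile normalization, no trend, voom on the reads, a replicate block, leaving out each library, and averaging the close pairs. Shared sequence was counted as 50-base words of GENCODE 29 transcripts found in other genes. Promoters are from RefSeq (GRCh38.p14). Tables and plots were made with Python 3.11.15, numpy 2.4.6, pandas 2.3.3 and matplotlib 3.10.9.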

Additional observations from a re-analysis of the deposited data

How the results depend on the processing

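The number of the 57 genes called by column name, 2, was 2 with a pseudocount of 0.1, 3 with quantile normalization, without the mean-variance trend or with voom, 0 without the filter on low values (34468 genes tested), and 0 with the close pairs averaged. Without 1 library it was 0 to 2: 0 without NCa, NCb or siPrp19b, 1 without siPrp19c (*HERPUD1*), and 2 without NCc (*HSP90AA1* and *PDIA4*) or siPrp19a. In the 4 libraries and by label it was 0 in every alternative run. The median log2 fold change of the 57 became 0.054, 0.057 and 0.041 under quantile normalization, by column name, in the 4 libraries and by label, from -0.067, -0.083 and -0.060. In the 4 libraries it ranged from -0.19 (without NCa) to -0.00032 (without NCc) when 1 library was left out, by column name from -0.11 to -0.018, and by label from -0.093 to -0.0063. A lone library left in a group was assumed to vary like the other group.

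With the letter of the column name as a replicate block, 1 of the 57 genes was called (*HERPUD1*, adjusted p-value 0.0181 by limma), and *HSP90AA1* (0.0956) and, of the further lists, *BAG4* (0.0679) were not. All genes called numbered 928 with the block, in place of 1089. With the block, 0 were called in the 4 libraries and by label. The deviations of libraries of the same letter correlated at 0.13, -0.049 and 0.20, and those with the same replicate number in the labels at 0.39, -0.17 and 0.32, so the numbers were not taken to pair the libraries.

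Under quantile normalization 20 of the 57 log2 fold changes by column name changed sign, 19 of them from below to above 0. All 57 were refitted under every alternative, but sign changes are followed here only for the 29 chosen for naming by the rule above. Among these 29, none of the called genes changed sign. Of the others, under quantile normalization the log2 fold changes were 0.030 for *HSF1*, 0.041 for *HSPA8*, 0.035 for *CCT2*, 0.10 for *HSPA9*, 0.10 for *HSPD1* and -0.00020 for *EIF2AK3*. Without NCc they were 0.020 for *HSF1*, 0.019 for *HSPA9*, 0.0097 for *HSPD1*, -0.026 for *EIF2AK3*, -0.078 for *SEL1L* and -0.052 for *EDEM1*. Without siPrp19a they were -0.0076 for *HSF2*, -0.012 for *HSPA4* and -0.013 for *SEL1L*; without siPrp19b, -0.027 for *EIF2AK3*; and without siPrp19c, -0.024 for *EDEM1*. The cause was not tested. With 3 libraries per group, a gene that was not called may still differ by any amount within its interval.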
